A study of Arabidopsis thaliana with 24 samples.

Results

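The early steps of the flavonoid pathway were followed through 8 genotypes of *Arabidopsis thaliana* seedlings. The genes were taken by name, as those from chalcone synthase to flavonoid 3'-hydroxylase, and make up 5 of the 33331 gene identifiers in the count files. The enzymes are chalcone synthase (*TT4*, AT5G13930), chalcone isomerase (*TT5*, AT3G55120), flavanone 3-hydroxylase (*TT6*, AT3G51240) and flavonoid 3'-hydroxylase (*TT7*, AT5G07990). The fifth gene, *CHIL* (AT5G05270), encodes a chalcone isomerase-like protein. All 5 passed the filter on low counts, although *TT6* had only 2 to 19 counts in any library.

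Chalcone synthase joins coumaroyl-CoA with malonyl-CoA units into a chalcone, the first committed flavonoid. Chalcone isomerase closes the ring to the flavanone naringenin, and *CHIL* protein has no isomerase activity of its own but helps chalcone synthase to form the right product. Flavanone 3-hydroxylase makes dihydrokaempferol, which flavonoid 3'-hydroxylase, a cytochrome P450, turns into dihydroquercetin, the precursor of quercetin and cyanidin. These steps serve both flavonols and anthocyanins, which part ways in the later steps. In seedlings the flavonol MYB factors *MYB11*, *MYB12* and *MYB111* and the light-response factor *HY5* are known activators of the early genes.

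The genotypes were wild-type Col-0, *tt19-8* and 6 suppressor lines named S1, S2, S4, S5, S7 and S8, with 3 replicate libraries of whole-seedling RNA each and 24 in all. All seedlings were 4 days old and had been shaken in 3% sucrose with 24 h of light a day, the anthocyanin inductive conditions (AIC). The *tt19-8* allele is a T-DNA insertion in the Col-0 background that disrupts *TT19*, a glutathione S-transferase needed for anthocyanin accumulation. Every suppressor line also carried *tt19-8*, together with a mutation induced by ethyl methanesulfonate: a nonsense change in *RDR6* in S1, S2 and S8, a missense change in *RDR6* in S4, a splice-site change in *SGS3* in S5 and a splice-site change in *DCL4* in S7. *RDR6*, *SGS3* and *DCL4* act together in the making of secondary siRNAs. Each line is 1 mutant isolate, so that an effect of its named mutation and of other induced mutations in the line cannot be told apart. Lines with these mutations but a working *TT19* were not analysed here. The labels do not state whether replicates came from separate cultures, and p-values therefore measure the spread between these samples, which may be technical.

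Library totals ran from 25.8 to 73.4 M counts. *TT19* stood at 128 ± 4.24 CPM (counts relative to the TMM-scaled total of the library; mean ± SD, n = 3) in Col-0, at 1.22 ± 0.30 CPM in *tt19-8* and at means of 2.05 to 11.1 CPM in the lines. *RDR6* fell against *tt19-8* in the nonsense lines S2 and S8, and *RDR6* in S1 (log2 fold change -0.24) and *DCL4* in S7 (-0.15) were not called. Since these changes are single bases, transcript levels need not show them. *SGS3* fell in S5, where replicate 3 stood apart: *SGS3* was at 8.90 and 9.80 CPM in S5 replicates 1 and 2 and at 19.2 CPM in replicate 3, against a mean of 29.9 ± 2.36 CPM in *tt19-8*. Genes of the low-oxygen response separated replicate 3 from the other replicates in *tt19-8*, S8 and S2. The 10 listed genes summed to 8224 CPM in *tt19-8* replicate 3 against 1893 and 1831 in replicates 1 and 2, to 6585 in S8 replicate 3 against 2787 and 2804, and to 3997 in S2 replicate 3 against 1893 and 1818. Replicate 3 was low instead in S7, with 1423 CPM against 2913 and 3218, and in Col-0, with 1143 CPM against 1891 and 1799. Messenger RNAs of 4 seed storage genes, which mark seeds, summed to 46.5 to 104 CPM in Col-0, to 655 to 766 CPM in *tt19-8* and to 3790 to 3914 CPM in S1. Green tissue was represented by 4 photosynthesis genes at 102 to 394 CPM in sum and root hairs by 3 genes at 9.59 to 39.3 CPM, so that markers of both organs were present in all 24 libraries. In RNA from whole seedlings, fewer cells of a type and less RNA per cell cannot be told apart.

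Because 4 of these genes moved together, the 250 bases before their annotated starts are shown, from TAIR10.1 as annotated by RefSeq. Capitals mark ACGT, the core read by bZIP factors such as HY5, and CACGTG, the G-box, which contains an ACGT. Both motifs read the same on the 2 strands. The MYB motifs ACCTACC and ACCAACC were searched on both strands as well and had no match.
*TT4*, chr5:4488226-4488475, plus strand: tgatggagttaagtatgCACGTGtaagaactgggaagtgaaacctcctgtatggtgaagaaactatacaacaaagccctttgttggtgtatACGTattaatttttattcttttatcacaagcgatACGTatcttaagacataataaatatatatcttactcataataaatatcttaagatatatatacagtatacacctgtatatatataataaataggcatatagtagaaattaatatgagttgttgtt
*TT5*, chr3:20431598-20431847, minus strand: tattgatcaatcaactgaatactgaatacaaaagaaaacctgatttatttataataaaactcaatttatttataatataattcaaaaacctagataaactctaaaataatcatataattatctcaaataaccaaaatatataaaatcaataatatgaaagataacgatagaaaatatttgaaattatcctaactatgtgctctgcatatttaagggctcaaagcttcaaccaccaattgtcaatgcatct
*CHIL*, chr5:1563036-1563285, plus strand: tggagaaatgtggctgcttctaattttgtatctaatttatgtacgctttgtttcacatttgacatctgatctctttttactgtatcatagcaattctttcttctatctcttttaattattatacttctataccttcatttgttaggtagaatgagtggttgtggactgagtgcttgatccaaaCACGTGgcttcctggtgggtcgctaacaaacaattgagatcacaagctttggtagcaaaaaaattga
*TT7*, chr5:2560078-2560327, plus strand: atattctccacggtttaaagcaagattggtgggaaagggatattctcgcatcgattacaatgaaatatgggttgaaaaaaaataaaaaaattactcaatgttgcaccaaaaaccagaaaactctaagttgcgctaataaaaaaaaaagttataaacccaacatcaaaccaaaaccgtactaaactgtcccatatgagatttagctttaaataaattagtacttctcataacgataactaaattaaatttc

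The *TT4* window held 1 G-box, 233 to 228 bases before the start, and 2 further ACGT matches. The *CHIL* window held 1 G-box, 67 to 62 bases before the start, and no ACGT outside it. The windows of *TT5* and *TT7* held none of the 4 motifs, which says only that these letters are not in these windows. The *TT6* window, not printed, held 1 G-box and 4 further ACGT matches. Among the windows of 27443 protein-coding genes, 6.49% held a G-box, 44.1% an ACGT, 1.16% ACCTACC and 2.69% ACCAACC. No motif of the 4 was present in the windows of all 5 members.

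Chalcone synthase was the most abundant of the 5 transcripts in every genotype. *TT4* (chr5:4488476-4490264, TAIR10.1, plus strand, 2 exon blocks) was counted at 1068, 933 and 1141 CPM in the 3 Col-0 libraries and at 1038, 978 and 1225 CPM in those of *tt19-8*, so the 2 genotypes overlapped. S1 held 1368, 1357 and 1324 CPM, all above both. S5 held 1954 and 2054 CPM in replicates 1 and 2 but 1325 CPM in replicate 3, which fell within the range of S1. S4 was narrow at 2513, 2538 and 2481 CPM. S8 held 3269.6, 2879.9 and 2594 CPM and S2 held 3952, 3625 and 3035 CPM, which overlapped. S7 was highest, with 5321, 6043 and 4886 CPM, and there *TT4* alone took 0.509% to 0.612% of all counts, against 0.0936% to 0.115% in Col-0.

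Chalcone isomerase had fewer counts and kept nearly the same order of genotypes. *TT5* (chr3:20430059-20431597, minus strand, 4 exon blocks) stood at 101, 93.5 and 111 CPM in Col-0 and at 88.7, 96.2 and 105 CPM in *tt19-8*. It reached 130.4, 145 and 142 CPM in S1, 181, 197 and 187 CPM in S4, and 217, 220.03 and 137 CPM in S5. S8 had 303, 293 and 263 CPM, S2 had 369.6, 379 and 255 CPM, and S7 had 385, 424 and 367 CPM. The 3 highest genotypes S8, S2 and S7 overlapped their neighbours in order, and S4 lay within the range of S5.

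*CHIL* (chr5:1563286-1565324, plus strand, 5 exon blocks) was lowest in the 2 genotypes without a suppressor mutation. Its values were 60.8, 59.5 and 77.2 CPM in Col-0 and 60.5, 60.5 and 63.8 CPM in *tt19-8*. S1 (105, 111 and 104 CPM) and S4 (115, 115 and 117 CPM) were low among the lines and did not overlap. S5 split into 205 and 211 CPM in replicates 1 and 2 and 98.0 CPM in replicate 3, below every S1 and S4 library. S2 split in the same way, with 418, 379.9 and 190 CPM, whereas S8 (257, 284 and 254 CPM) and S7 (360.5, 404 and 369 CPM) did not. The spread over replicates was 37.1% of the mean in both S2 and S5 and 1.00% in S4.

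Flavonoid 3'-hydroxylase was the member whose level already differed between Col-0 and *tt19-8*. *TT7* (chr5:2560328-2563137, plus strand, 4 exon blocks) was at 187, 189 and 207 CPM in Col-0 and lower in each *tt19-8* library, at 119, 121 and 112 CPM. S1 (313, 302 and 287 CPM) and S4 (304, 305 and 307 CPM) overlapped. S5 held 379, 368 and 175 CPM, and replicate 3 was below all 3 Col-0 libraries. S8 held 574, 574 and 485 CPM, S2 held 821, 781 and 582 CPM, and S7 held 777, 763 and 809 CPM. S8 lay below S2 in every library, and S2 and S7 overlapped.

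*TT6* was nearly without counts. The 24 libraries held 2 to 19 counts, with means of 0.10 ± 0.05 CPM in *tt19-8* and 0.30 ± 0.07 CPM in S8 at the ends of the order. A level of 3 counts, taken as the floor of detection, corresponds to 0.0414 to 0.116 CPM in these libraries, and floors cover counting error only. All neighbouring genotypes in the order overlapped, and *TT6* was not called in any of 20 comparisons. In the TAIR10.1 annotation its model (chr3:19025192-19026872, plus strand, 3 exon blocks) is overlapped over 93.8% of its exon bases by AT3G51238 on the opposite strand, which leaves 93 exon bases to *TT6* alone. AT3G51238 itself had no count in 23 libraries and 2 counts in S4 replicate 1. How reads in overlapping genes were counted is not given in the sources used here, so the *TT6* values cannot be read as the level of its transcript.

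**Figure D1:**
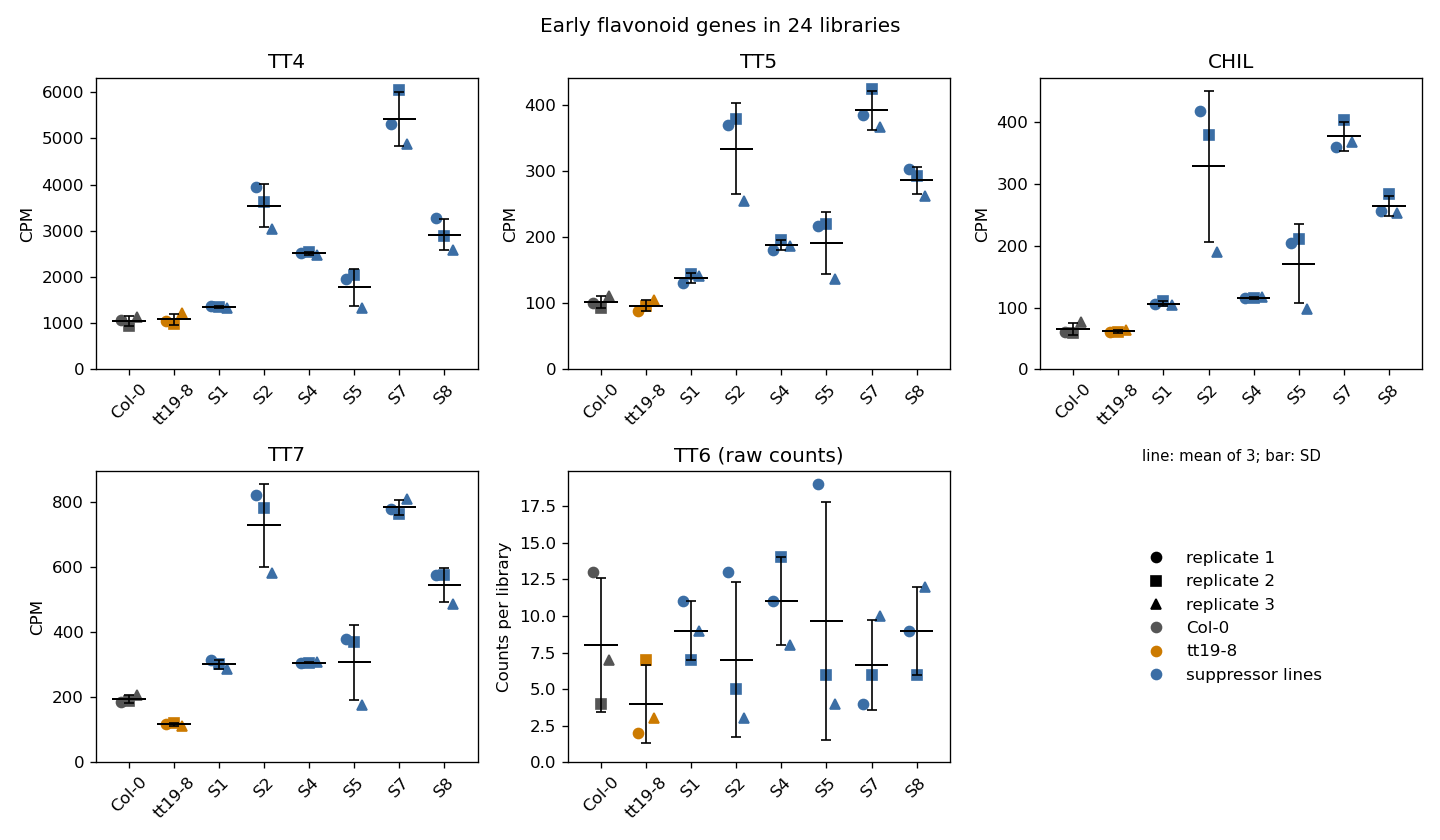
Values of the 5 early flavonoid genes in each of the 24 libraries, in CPM (linear axes from 0) for *TT4*, *TT5*, *CHIL* and *TT7* and in raw counts for *TT6*; symbols mark replicates, lines the mean of 3 and bars the SD. Replicate 3 of S5, S2 and S8 lies below the other 2 replicates for *TT4*, *TT5*, *CHIL* and *TT7*, S7 has the highest mean of each, and *TT6* stays between 2 and 19 counts.

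Per length of transcript (TPM, computed over the genes with an annotated exon length), *TT4* stood at 1082 ± 116 in Col-0, *TT7* at 177 ± 13.4, *TT5* at 161 ± 16.04 and *CHIL* at 83.8 ± 13.8. In S7 the TPM were 5911 ± 521 for *TT4*, 756 ± 36.1 for *TT7*, 656 ± 35.5 for *TT5* and 507 ± 18.2 for *CHIL*. *TT4* transcript was thus the most abundant by level per length in both genotypes, and *CHIL* the least abundant of these 4.

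The first comparison sets the insertion line *tt19-8* against Col-0. An effect of the loss of *TT19* and of other differences of the line cannot be told apart. Only *TT7* fell in *tt19-8*, by 0.73 on the log2 scale (SE 0.18, edgeR adjusted p = 0.0101), and its 3 libraries lay below all 3 of Col-0. The difference was 0.05 ± 0.14 for *TT4* (log2 fold change ± SE, adjusted p = 0.865), -0.08 ± 0.15 for *TT5* (adjusted p = 0.764) and -0.10 ± 0.23 for *CHIL* (adjusted p = 0.822), with libraries that overlapped. The 95% intervals of these differences were -0.24 to 0.33 for *TT4*, -0.38 to 0.22 for *TT5* and -0.57 to 0.38 for *CHIL*. They rest on a spread between replicates that was estimated over all 24 libraries, not over these genotypes alone. *TT6* was at -0.77 ± 0.65 (adjusted p = 0.468). Of all tested genes 13.6% were called in this comparison, which sets the background for 1 member of 5. The fall of *TT7* held whichever 1 library was left out. Markers moved in the same comparison: all 4 seed storage genes rose (median log2 fold change 2.97), as did 4 of 10 low-oxygen genes (median of the 10, 1.05) and 1 of 3 root hair markers. Low-oxygen sums of replicates 1 and 2 were alike, at 1893 and 1831 CPM in *tt19-8* and 1891 and 1799 CPM in Col-0. In replicate 3 the sums were 8224 CPM in *tt19-8* and 1143 CPM in Col-0. The part of these markers in the values of the early genes was not tested.

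Against *tt19-8*, 4 of the 5 members rose in S2, S4, S5, S7 and S8, namely *TT4*, *TT5*, *CHIL* and *TT7*, with no overlap between libraries. In S1 3 of the 5 rose, *TT5*, *CHIL* and *TT7*. The share of all tested genes called higher than *tt19-8* was 18.1% in S7, 16.5% in S1, 12.6% in S8, 12.3% in S5, 9.49% in S2 and 7.83% in S4. All 3 libraries of a line lay above those of *tt19-8* for 25.7% of all genes in S1, 21.4% in S7, 18.7% in S4, 18.2% in S8, 17.7% in S5 and 14.1% in S2. All 6 comparisons use the same *tt19-8* libraries.

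S7 showed the largest rises. *TT7* rose by 2.74 ± 0.19 on the log2 scale (log2 fold change ± SE), a 6.67-fold difference, *CHIL* by 2.62 ± 0.24, *TT4* by 2.33 ± 0.14 and *TT5* by 2.02 ± 0.15. The largest edgeR adjusted p among them was 5.75e-08, for *CHIL*. In S2 the rise was 2.63 ± 0.19 for *TT7*, 2.42 ± 0.24 for *CHIL*, 1.79 ± 0.15 for *TT5* and 1.71 ± 0.14 for *TT4*. In S8 it was 2.21 ± 0.19 for *TT7*, 2.104 ± 0.23 for *CHIL*, 1.57 ± 0.15 for *TT5* and 1.43 ± 0.14 for *TT4*. These 3 lines thus had the hydroxylase gene and *CHIL* ahead of chalcone synthase and isomerase in log2 fold change. S5 and S1, given below, had the same and S4 had not. Other lists moved beside the early genes. In S7, 2 of 4 green tissue markers rose, with sums of 295 to 394 CPM against 161 to 195 CPM in *tt19-8*. There 4 of 10 low-oxygen genes fell, and all 3 root hair markers fell in both S7 and S8. The part of these markers in the rises was not tested.

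The rises were smaller in S5 and S4. In S5 *CHIL* rose by 1.48 ± 0.23, *TT7* by 1.39 ± 0.18, *TT5* by 0.99 ± 0.15 and *TT4* by 0.72 ± 0.14, the last with edgeR adjusted p = 0.000702. Without S5 replicate 3 the rises were 1.76 for *CHIL*, 1.67 for *TT7*, 1.18 for *TT5* and 0.89 for *TT4*. In S4 *TT7* rose by 1.38 ± 0.18 and *TT4* by 1.22 ± 0.14, ahead of *TT5* with 0.97 ± 0.15 and *CHIL* with 0.91 ± 0.23 (adjusted p = 0.00777). S4 was the line in which *CHIL* had the smallest of the 4 rises.

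S1 had the lowest mean of the lines for all 4 genes, although it overlapped S5 for *TT4*, *TT5* and *TT7* and S4 for *TT7*, and S5 replicate 3 lay below every S1 library for *CHIL*. *TT7* rose by 1.36 ± 0.18, *CHIL* by 0.79 ± 0.23 (edgeR adjusted p = 0.0101) and *TT5* by 0.53 ± 0.15 (adjusted p = 0.00772). *TT4* differed from *tt19-8* by 0.32 ± 0.14 and was not called (adjusted p = 0.0744), although all 3 S1 libraries lay above the 3 of *tt19-8*. Without *tt19-8* replicate 3, the one with high low-oxygen genes, *TT4* was called in S1 (0.42, adjusted p = 0.0384), and DESeq2 called it on all libraries (0.33, adjusted p = 0.0399). In S1 34% of all genes tested were called in either direction, and its seed storage sum of 3790 to 3914 CPM was the highest of the 8 genotypes. All 4 seed storage genes rose and all 10 low-oxygen genes fell in S1 against *tt19-8*, and 8 of the 10 fell in S5. Their part in the values of the early genes was not tested.

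*TT6* was not called in any line. Its log2 fold changes against *tt19-8* ran from 0.51 ± 0.66 in S2 to 1.55 ± 0.65 in S8 (edgeR adjusted p = 0.0844), at 6 to 12 counts a library in S8 and 2 to 7 in *tt19-8*. Its 95% interval in S2 was -0.87 to 1.89 on the log2 scale, which neither shows a rise nor shows that there was none.

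**Figure D2:**
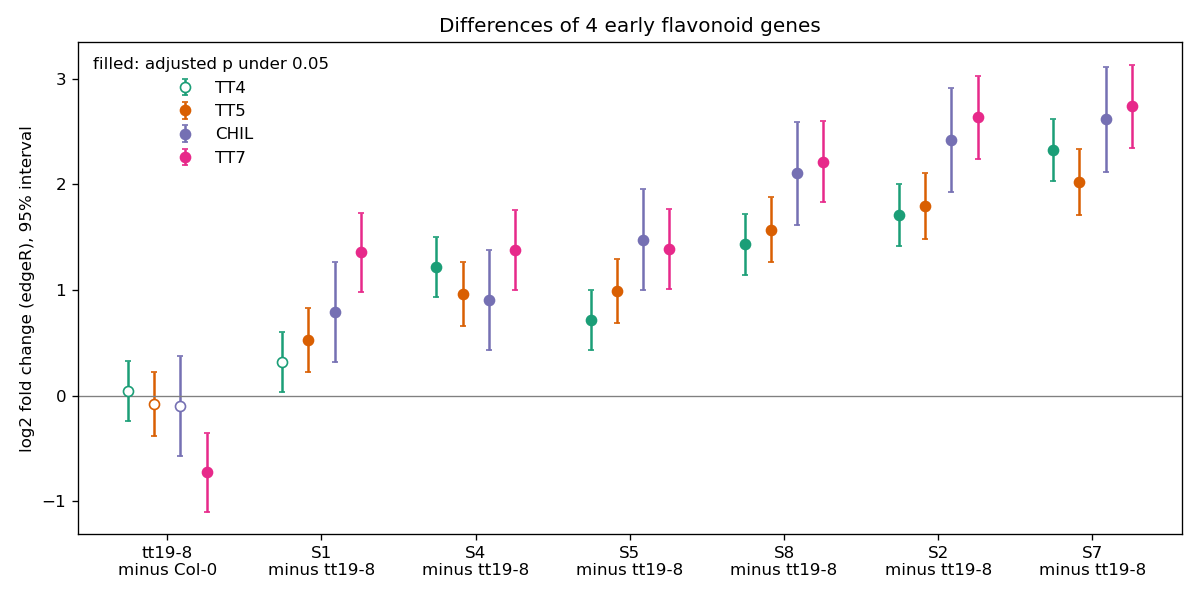
Log2 fold change (edgeR) with its 95% interval for *TT4*, *TT5*, *CHIL* and *TT7* in *tt19-8* against Col-0 and in each suppressor line against *tt19-8*; filled points have an adjusted p under 0.05. Only *TT7* is below 0 with a filled point in *tt19-8*, and in the lines the points run from 0.32 for *TT4* in S1 to 2.74 for *TT7* in S7.

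Set against the wild type, 4 of the 5 early genes were higher in the lines. *TT4*, *TT5*, *CHIL* and *TT7* were called higher in each of the 6 lines, where the share of all tested genes called higher than Col-0 was highest in S7 with 22.3%, then 20.6% in S4, 18.2% for S1, 14.8% for S8, 14% for S2 and 13% for S5. S7 again showed the largest differences, with 2.52 ± 0.24 for *CHIL*, 2.37 ± 0.14 for *TT4*, 2.01 ± 0.18 for *TT7* and 1.94 ± 0.15 for *TT5*. In S4 the order was different, with 1.26 ± 0.14 for *TT4*, 0.89 ± 0.15 for *TT5*, 0.81 ± 0.23 for *CHIL* and 0.65 ± 0.18 for *TT7*. In S1 the calls were close to the threshold, with 0.37 ± 0.14 for *TT4* (edgeR adjusted p = 0.0402), 0.45 ± 0.15 for *TT5* (adjusted p = 0.0197), 0.70 ± 0.23 for *CHIL* (adjusted p = 0.0201) and 0.63 ± 0.18 for *TT7* (adjusted p = 0.00833). Markers were higher than in Col-0 as well: all 4 seed storage genes in S1, S2, S4, S5 and S8 and 3 in S7 (medians 1.87 to 5.93), all 10 low-oxygen genes in S4 and 7 in S8, and 3 of 4 green tissue markers in S7. In S4, 2 green tissue markers were lower, and in S1, 3 low-oxygen genes. Their part in the differences of the early genes was not tested.

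Of the 4 calls in S1 against Col-0, that of *TT7* held whichever library was left out and those of the other 3 genes did not. *TT4* lost its call when any 1 of the 3 S1 libraries or of Col-0 replicates 1 and 2 was left out, with adjusted p from 0.0714 to 0.164. *TT5* lost it without Col-0 replicate 1 (adjusted p = 0.0557), Col-0 replicate 2 (0.0835), S1 replicate 2 (0.0615) or S1 replicate 3 (0.0537), and *CHIL* without Col-0 replicate 1 (0.073), Col-0 replicate 2 (0.0768) or S1 replicate 2 (0.0546). *TT7* in S5 overlapped Col-0 through S5 replicate 3. It was called at 0.66 ± 0.18 (edgeR adjusted p = 0.00897), and not without S5 replicate 1 (0.48, adjusted p = 0.0732), without S5 replicate 2 (0.51, adjusted p = 0.0645) or with the 6 libraries of S5 and Col-0 alone (adjusted p = 0.0789). Without S5 replicate 3 it was 0.94 (adjusted p = 2.46e-06).

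Of the 4 *RDR6* alleles, S2 was compared with S8, S4 with S2 and S8, and S1 with S8. S1 was not tested against S2 or S4. S2 and S8, both nonsense, were called different for none of the members, with log2 differences of 0.28 ± 0.14 for *TT4*, 0.22 ± 0.14 for *TT5*, 0.31 ± 0.22 for *CHIL* and 0.42 ± 0.18 for *TT7* in S2 over S8. Their 95% intervals reached up to 0.56 for *TT4*, 0.52 for *TT5*, 0.78 for *CHIL* and 0.79 for *TT7*, and the edgeR adjusted p ran from 0.143 for *TT7* to 0.429 for *CHIL*. In this comparison 10.7% of all genes were called. At an unadjusted p under 0.05, *TT7* was the 1 of the 5 members that passed. The share of all genes that passed at that threshold was not counted. DESeq2 called 13.4% of all genes and none of *TT4*, *TT5*, *CHIL* and *TT7*. S2 lay above S8 in every *TT7* library, as it did for 11.2% of all tested genes. When S2 replicate 3 was left out, 2 members were called, *CHIL* at 0.59 (edgeR adjusted p = 0.0336) and *TT7* at 0.56 (adjusted p = 0.0404). In that fit 15.8% of all genes were called.

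The missense line S4 stood below the nonsense lines S2 and S8 but not below the nonsense line S1. Its libraries lay above those of S1 for *TT4* (means of 2511 and 1349 CPM), *TT5* and *CHIL*. They overlapped S1 for *TT7*, and S4 was not tested against S1. The share of all genes that separate these 2 lines was not counted. Against S2 all 4 members were lower: *CHIL* fell by 1.51 on the log2 scale (SE 0.23), *TT7* by 1.25 (SE 0.18), *TT5* by 0.83 (SE 0.15) and *TT4* by 0.49 (SE 0.14, edgeR adjusted p = 0.00979). *TT4* lost this call without S2 replicate 1 (adjusted p = 0.0583). Against S8, *CHIL* was lower by -1.19 ± 0.23, *TT7* by -0.84 ± 0.18 and *TT5* by -0.60 ± 0.15, whereas *TT4* was not called (-0.22 ± 0.14, 95% interval -0.50 to 0.07, adjusted p = 0.23). Of all genes 28.6% were called between S4 and S2 and 35.6% between S4 and S8. The low-oxygen genes summed to 5757 to 6108 CPM in all 3 S4 libraries, and 5 of 10 were higher than in S2 and 1 than in S8. Against S8, all 3 root hair markers were higher in S4 and 2 of 4 green tissue markers lower. The part of these markers in the differences was not tested.

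S1, whose change is also a nonsense one, stood below S8 for all 4 genes. The difference was -1.31 ± 0.23 for *CHIL*, -1.11 ± 0.14 for *TT4*, -1.04 ± 0.15 for *TT5* and -0.86 ± 0.18 for *TT7*, the last with edgeR adjusted p = 0.00109, and no library of S1 reached S8. In this comparison 28% of all genes were called, and for 48.2% the libraries of the 2 lines did not overlap, in either direction. Seed storage genes summed to 894 to 1216 CPM in S8 and to 3790 to 3914 CPM in S1, and all 10 low-oxygen genes were lower in S1 (median -1.88). Their part in the difference was not tested.

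The lines with other mutated genes stood at different heights. S7 (*DCL4*) exceeded S8 by 0.89 ± 0.14 for *TT4*, 0.52 ± 0.18 for *TT7* (edgeR adjusted p = 0.0226) and 0.45 ± 0.14 for *TT5* (adjusted p = 0.016), and *CHIL* missed the threshold at 0.51 ± 0.22 (adjusted p = 0.075). S5 (*SGS3*) was below S8 by -0.82 ± 0.18 for *TT7*, -0.71 ± 0.14 for *TT4* and -0.58 ± 0.15 for *TT5* (adjusted p = 0.00986), and *CHIL* again missed it at -0.63 ± 0.23 (adjusted p = 0.0651). Between S7 and S5 all 4 rose, by 1.61 ± 0.14 for *TT4*, 1.35 ± 0.18 for *TT7*, 1.14 ± 0.23 for *CHIL* and 1.04 ± 0.15 for *TT5*. Between S7 and S8, 3 of 4 seed storage genes and 3 of 10 low-oxygen genes were lower in S7 and 2 of 4 green tissue markers higher. In S5, 8 of 10 low-oxygen genes were lower than in S8 and 1 of 3 root hair markers was higher. Between S7 and S5, all 4 seed storage genes (median -2.09) and 2 of 3 root hair markers were lower in S7, and 3 of 10 low-oxygen genes and 2 of 4 green tissue markers higher. The part of these markers was not tested. The shares of all genes called were 39.9% between S7 and S8, 14.9% between S5 and S8 and 45.2% between S7 and S5.

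Some of these calls depended on 1 library. *TT5* between S7 and S8 was lost without S7 replicate 2 (edgeR adjusted p = 0.0649) or S8 replicate 3 (0.0675). *TT7* was lost without S7 replicate 3 (0.0533) or S8 replicate 3 (0.0909). Without S8 replicate 3, 1 of the 4 members was called, beside 34.1% of all genes. Between S5 and S8, leaving out S5 replicate 3 took *TT7* from -0.82 to -0.54 (adjusted p = 0.00329) and *TT5* from -0.58 to -0.39 (adjusted p = 0.0545), which ended its call. *CHIL* between S5 and S8 was called without S5 replicate 2 (-0.80, adjusted p = 0.043).

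The ratio of *TT7* to *TT4* within a library varied between genotypes. How often other pairs of genes separate genotypes in this way was not counted. With 1 added to each count, *TT7* had within a library 0.19 ± 0.01 counts for each *TT4* count in Col-0 and 0.11 ± 0.02 in *tt19-8* (mean ± SD, n = 3), a fall of the log2 ratio from -2.43 ± 0.11 to -3.20 ± 0.23, with all *tt19-8* libraries below Col-0. It was higher than in *tt19-8* in every library of S1 (-2.17 ± 0.04), S2 (-2.29 ± 0.09), S8 (-2.42 ± 0.09), S5 (-2.59 ± 0.29) and S7 (-2.78 ± 0.20). In S4 the ratio of *TT7* to *TT4* (-3.04 ± 0.02) overlapped *tt19-8*. Each non-overlapping pair of genotypes gave a two-sided exact permutation p of 0.1, the smallest that 3 against 3 libraries allow, and 0.127 after Benjamini-Hochberg adjustment over 14 such tests, so none could pass 0.05.

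A second ratio set *CHIL* against *TT5*. There were 0.64 ± 0.05 *CHIL* counts for each *TT5* count in Col-0 and 0.64 ± 0.04 in *tt19-8*, and 0.61 ± 0.03 in S4, all overlapping. The ratio was 0.77 ± 0.04 in S1, 0.87 ± 0.14 in S5, 0.93 ± 0.07 in S8, 0.96 ± 0.20 in S2 and 0.96 ± 0.04 in S7, in each of which every library lay above those of *tt19-8* (exact permutation p = 0.1, the smallest possible). S4 was thus the line whose libraries overlapped *tt19-8* in both ratios, with exact permutation p of 0.4 for *TT7* over *TT4* and 0.5 for *CHIL* over *TT5*. Replicate 3 was lowest in *tt19-8*, S1, S2 and S5 for both ratios.

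**Figure D3:**
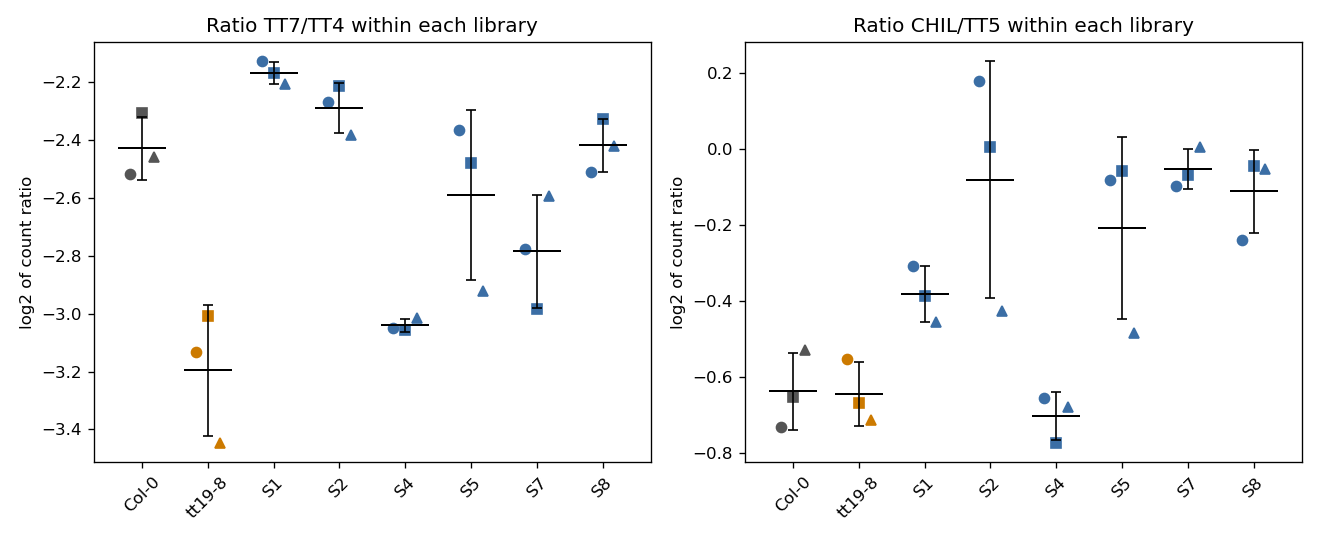
Log2 of the ratio of counts of *TT7* to *TT4* (left) and of *CHIL* to *TT5* (right) in each library, with 1 added to each count; symbols mark replicates, lines the mean of 3 and bars the SD. S4 sits with *tt19-8* in both panels, at -3.04 and -0.70, while S1, S2, S5, S7 and S8 lie above *tt19-8*.

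Over the 24 libraries the 4 measured members rose and fell together. On log2(CPM + 1), *TT5* and *CHIL* were the closest pair (Pearson r = 0.98, Spearman rho = 0.98) and *TT4* and *TT7* the least close (r = 0.92, rho = 0.93). After the mean of each genotype was taken out, the same pairs stood at 0.93 and 0.77. These are descriptions over 24 libraries that share their genotypes and, within a library, depth and RNA. Replicate 3 was the lowest of its genotype in S2, S5 and S8 for *TT4*, *TT5*, *CHIL* and *TT7*.

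The same few genes were most like the members in pattern, among 19194 genes of at least 1 CPM. For *TT4* they were AT2G23910 (r = 0.98), *TT5* (0.97), AT5G22020 (0.96), *4CL3* (0.95) and *LTP6* (0.94). For *TT5* they were *LTP6*, *CHIL* and *4CL3* (all 0.98), *KAT5* (0.98) and AT5G22020 (0.98). For *CHIL* the closest were *KAT5* (0.99), *TT5* (0.98), *LTP6* (0.98), *4CL3* (0.98) and *GSTF5* (0.98), and for *TT7* they were *KAT5* (0.97), *4CL3* (0.97), *LTP6* (0.96), *TT5* (0.96) and *GSTF5* (0.96). The median r over all genes compared was 0.01 to 0.02 for each member. *4CL3* encodes a 4-coumarate:CoA ligase, which makes the coumaroyl-CoA that chalcone synthase uses, *KAT5* a thiolase, *LTP6* a lipid transfer protein and *GSTF5* a glutathione S-transferase.

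The steps that feed chalcone synthase moved in both directions. Of 11 genes for phenylalanine ammonia-lyase, cinnamate 4-hydroxylase, 4-coumarate:CoA ligase and acetyl-CoA carboxylase, 7 rose and 2 fell in S2, 7 rose in S8, 6 rose and 3 fell in S7, 5 rose in S5, 3 rose and 2 fell in S4 and 3 rose and 1 fell in S1, all against *tt19-8*. The medians of their log2 fold changes were 0.66 in S2, 0.64 in S8, 0.30 in S7, 0.22 in S5, 0.04 in S4 and 0.14 in S1, beside medians of the 5 early genes, *TT6* included, of 1.79, 1.57, 2.33, 1.11, 0.97 and 0.65. In S5 and S1 the early median was the value of *TT6* itself, which cannot be read as the level of its transcript. The other early genes ran from 0.72 to 1.48 in S5 and from 0.32 to 1.36 in S1. The median over all tested genes lay within 0.03 of 0 in each comparison. *4CL3*, the supply gene among those most like the members, stood at 32.0 ± 0.96 CPM in *tt19-8*, 64.9 ± 1.504 CPM in S1 and 205 ± 26.2 CPM in S7.

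The late anthocyanin enzymes, which turn dihydroquercetin into decorated anthocyanins, are set beside the early ones. In *tt19-8* 7 of 10 late genes fell, with a median of -0.90, and the lowest was *LDOX*, the anthocyanidin synthase gene (-1.21 ± 0.21, edgeR adjusted p = 0.000703), whereas 1 of the 5 early genes fell, with a median of -0.10. Against *tt19-8* all 10 late genes rose in S2, S4, S5, S7 and S8 and 9 in S1. Against Col-0 none of the 10 late genes was called higher in S1 and 1, *BGLU10*, was lower (median -0.10, highest *3AT2* at 0.46), and 3 were higher in S4 (median 0.05), while 4 of the 5 early genes were higher in both lines (medians 0.45 and 0.81). In S2 and S8 all 10 late genes were above Col-0, with medians of 1.65 and 1.64, and in S7 and S5 9 were, with medians of 1.76 and 0.88. Whether early and late genes differ in their response was not tested as such.

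The flavonol branch leaves the pathway after flavanone 3-hydroxylase or flavonoid 3'-hydroxylase. Of its 5 genes, 4 rose against *tt19-8* in S7, 3 in S2, 2 in S4 and 1 each in S1, S5 and S8. *UGT73C6* had the highest log2 fold change of the 5 in *tt19-8* over Col-0 (2.51). Against *tt19-8* it had the lowest in S1, S2, S4, S5 and S7 (-1.53 in S1 to -0.53 in S5), where none of the 5 was called lower. *FLS1*, the flavonol synthase gene, had the highest in S1, S2, S4 and S7. *FLS1* already rose in *tt19-8* over Col-0, by 0.76 ± 0.13 (edgeR adjusted p = 0.000765), where *TT4* and *TT5* were not called. It stood at 40.8 ± 6.97 CPM in Col-0, 69.1 ± 2.96 in *tt19-8*, 71.7 ± 9.15 in S8, 84.2 ± 3.63 in S5, 103 ± 1.55 in S1, 133 ± 3.16 in S4, 135 ± 21.7 in S2 and 300.5 ± 57.3 in S7. In S8, where *TT7* was raised 4.64-fold, *FLS1* differed from *tt19-8* by 0.05 ± 0.13 on the log2 scale (95% interval -0.22 to 0.32, adjusted p = 0.8).

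The known activators of early genes rose in some lines and fell in others. In S7 4 of 5 rose against *tt19-8*: *MYB111* by 1.99 ± 0.17, *MYB11* by 1.78 ± 0.25, *MYB12* by 1.16 ± 0.13 and *HY5* by 0.30 ± 0.11 (edgeR adjusted p = 0.0407). In S2 2 rose, *MYB111* by 0.73 ± 0.17 and *MYB12* by 0.39 ± 0.13 (adjusted p = 0.0378). In S8, where the early genes were 2.70 to 4.64 times their level in *tt19-8*, *MYB12* was at -0.35 ± 0.13 (adjusted p = 0.0549), *MYB111* at -0.02 ± 0.17 and *HY5* at -0.21 ± 0.11, none called, *MYB11* fell (-0.86 ± 0.27) and *HYH*, a relative of *HY5*, rose (0.40 ± 0.14). In S5 none rose and *MYB11* and *HY5* fell. In S1 *MYB12* rose by 0.41 ± 0.13 and the other 4 fell. In S4 *HYH* rose by 0.82 ± 0.14 and *MYB12* by 0.77 ± 0.13. In *tt19-8* over Col-0, *MYB12*, *HY5* and *HYH* rose. Activators that were neither the highest nor the lowest of the 5 were named after their values were seen.

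Among regulators of the late genes, 7 of 8 were tested. *TT8*, a bHLH factor of the MYB-bHLH-WD40 complex, had the highest log2 fold change of the 7 against *tt19-8* in S2 (2.71 ± 0.16), S7 (2.64 ± 0.16), S8 (2.33 ± 0.15), S5 (1.65 ± 0.15) and S4 (1.51 ± 0.15), and in S1 *PAP2* had (1.05). In *tt19-8* against Col-0, *TT8* had the lowest (-1.15 ± 0.15). *TT7* and *TT8* were thus both lower in *tt19-8* than in Col-0 and higher in the lines than in *tt19-8*. This was not particular to them. Of the 10 late anthocyanin genes, 7 were also lower in *tt19-8*, and 9 were higher than *tt19-8* in S1 and all 10 in the other lines.

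Genes related to the members by sequence or fold were called in either direction. The 7 listed were 4 chalcone synthase-like or chalcone isomerase-like genes and 3 fatty acid-binding proteins of the chalcone isomerase fold, and 6 were tested. Against *tt19-8* at most 2 of the 6 rose in any line, and their medians ran from -0.31 in S8 to 0.31 in S4. None of the 6 was called between *tt19-8* and Col-0.

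**Figure D4:**
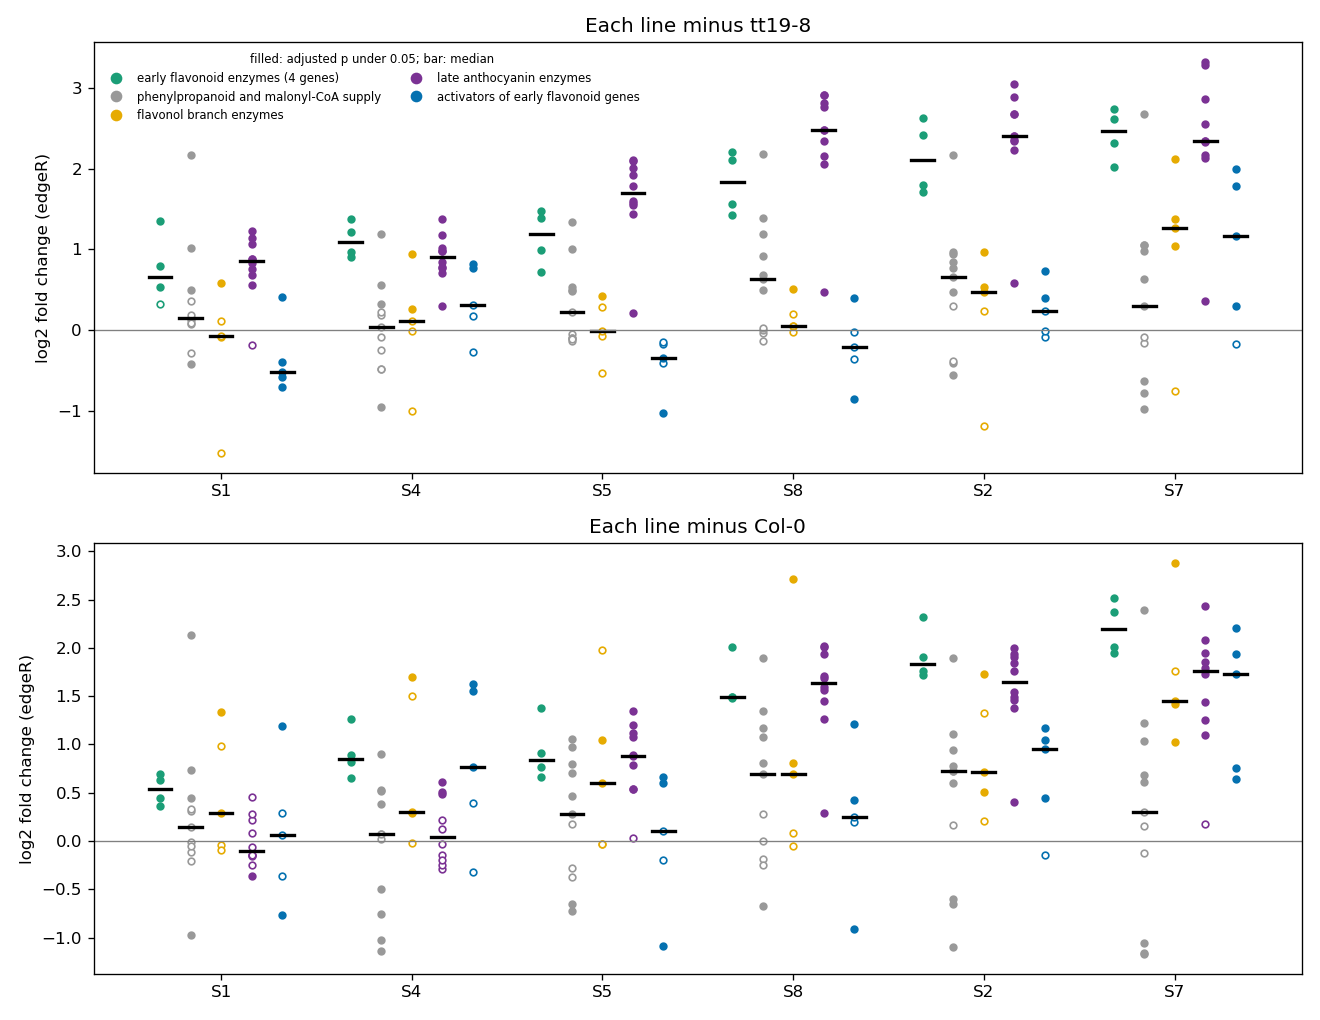
Log2 fold change (edgeR) of each gene of 5 lists in the 6 suppressor lines against *tt19-8* (top) and against Col-0 (bottom); the early list is shown with *TT4*, *TT5*, *CHIL* and *TT7*, filled points have an adjusted p under 0.05 and bars are medians. Against Col-0, the early genes are above 0 in S1 and S4, where the late anthocyanin medians are -0.10 and 0.05.

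The libraries that stood apart differed in the members too. In S2, replicate 3 had the lowest *TT4*, *TT5*, *CHIL* and *TT7* of the 3 replicates, and its seed storage genes summed to 3160 CPM against 863 and 920 in replicates 1 and 2. In S5, replicate 3 was likewise lowest in the 4 genes, but there the seed storage sum was lower, 596 CPM against 1372 and 1467, and *SGS3* was higher. In S8, replicate 3 was lowest in the 4 genes as well, by a small margin for *CHIL* (254 against 257 and 284 CPM), and its low-oxygen sum was 6585 CPM against 2787 and 2804. In *tt19-8*, replicate 3 had the highest low-oxygen sum and also the highest *TT4* and *TT5* (1225 and 105 CPM), but the lowest *TT7* (112 against 119 and 121 CPM). The part of these differences in the values of the early genes was not tested. With replicate 3 of *tt19-8*, S2 and S8 left out together, the number of members called in each comparison stayed within 1 of that over all libraries in all 20.

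**Figure D5:**
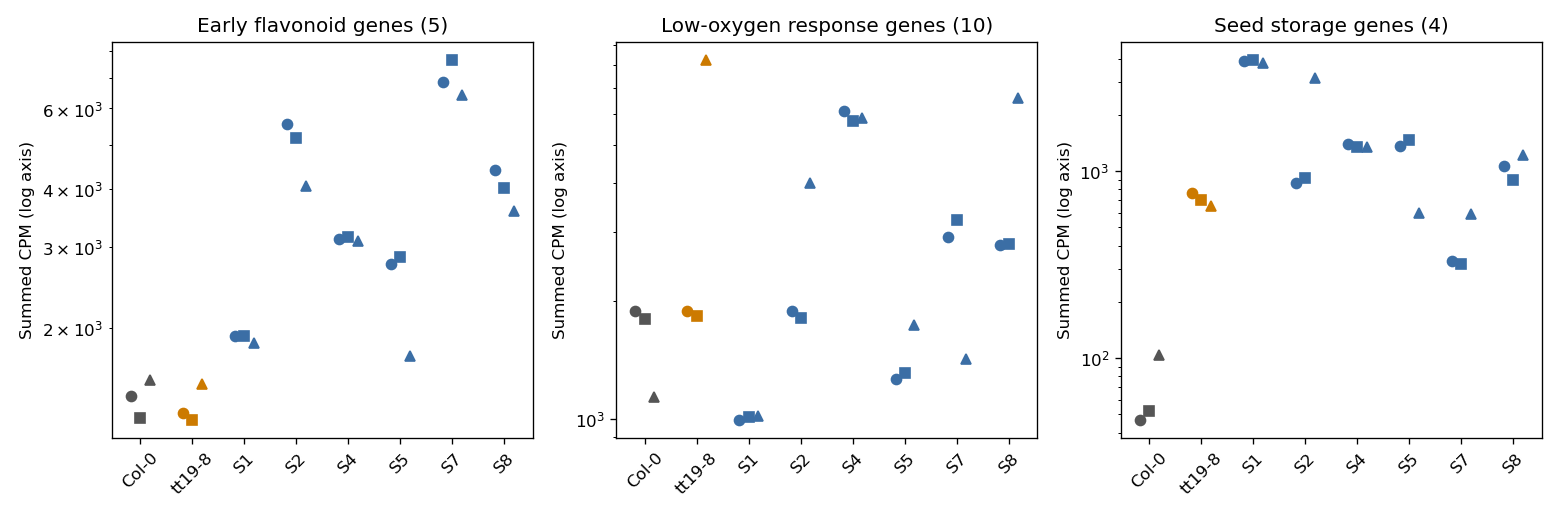
Summed CPM (log axes) of the 5 early flavonoid genes, 10 low-oxygen response genes and 4 seed storage genes in each library, by genotype; circles, squares and triangles are replicates 1, 2 and 3. *tt19-8* replicate 3 reaches 8224 CPM of low-oxygen genes, S1 has the highest seed storage sums (3790 to 3914 CPM), and the early gene sum is highest in S7.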

How the data were processed

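RNA of 24 whole-seedling libraries was sequenced in read pairs. According to the methods and the submitters' processing notes, the authors checked reads with FastQC 0.11.5, aligned them to TAIR10 with HISAT2 and deposited raw counts per gene from FeatureCounts, 1 table per library. Settings for strand, overlapping genes and multi-mapping reads are not given in the sources used here. Counts were tested with edgeR 4.0.16 (R 4.3.3): filterByExpr kept 22089 genes, TMM scaled the libraries, and a quasi-likelihood fit with 1 mean per genotype over all 24 libraries gave 20 comparisons, two-sided, each with Benjamini-Hochberg adjustment over all genes and a call at adjusted p under 0.05 whatever the fold. The SE is the fold change divided by the root of F. The common biological coefficient of variation was 14.2%. Ratios of 2 genes were compared by exact permutation. Counts may include PCR copies, so that floors cover counting error only.

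Alternatives were DESeq2 1.42.0, its size factors in edgeR, 2 other filters, a stricter threshold, fits of 6 libraries, a replicate block and left-out libraries. Replicate numbers come from the labels, which do not say what they share. Same-numbered libraries deviated together (every r over 0.1) only between *tt19-8* and S2 (mean r 0.30) and S8 (mean r 0.36). No 2 replicates agreed within sampling noise.

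Coordinates and promoters come from TAIR10.1, where all 6 mutated positions of the study held the stated base in the stated gene. Of 33331 identifiers, 28932 matched its loci. The members and lists were chosen with earlier results of these data known. Named genes were the members, the gene overlapping *TT6*, the mutated genes, for each member with a mean of at least 1 CPM the 5 genes with the highest Pearson r, and the highest or lowest of a listed group. Lists were described by counts and medians.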

Additional observations from a re-analysis of the deposited data

How the results depend on the processing

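Of 1120 alternative values of member fold changes, 1074 kept their direction and their side of the threshold, 31 lost a call, 11 gained one and 4 changed sign. DESeq2 kept 77 of 80, and its size factors, no filter, a filter of 1 CPM in 3 libraries and the replicate block (pairing) kept 80 of 80 each; the block changed no count of members called in 20 comparisons. At an adjusted p under 0.01 the members called fell from 1 to 0 in *tt19-8* minus Col-0, from 4 to 1 in S1 minus Col-0 and from 3 to 1 in S7 minus S8. CHIL also lost its call in S1 minus *tt19-8* (edgeR adjusted p = 0.0101). At that threshold 5.36% of all genes were called in *tt19-8* minus Col-0 and 23.8% in S1 minus Col-0. The shares were 27.5% in S7 minus S8 and 21.6% in S1 minus *tt19-8*. With the 6 libraries compared alone the members called fell from 3 to 1 in S5 minus S8, beside 11.7% of all genes. Leaving out 1 library gave 1 to 4 members in S1 minus Col-0 and 0 to 2 in S2 minus S8. The range was 1 to 3 in S7 minus S8 and 2 to 4 in S5 minus S8. The shares of all genes called in these fits were 28.4% to 32.7% (S1 minus Col-0) and 7.19% to 15.8% (S2 minus S8). They were 33% to 38.1% (S7 minus S8) and 9.59% to 11.6% (S5 minus S8). CHIL in S7 minus S8 was called by DESeq2 (adjusted p = 0.0495) and with 6 libraries alone (0.00202), and CHIL in S5 minus S8 by DESeq2 (0.0212).

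The values that changed sign were uncalled. With 1 library left out, the difference of TT4 in *tt19-8* minus Col-0 ranged from -0.0544 (without *tt19-8* replicate 3) to 0.111, and that of CHIL from -0.164 to 0.0335 (without Col-0 replicate 3). TT4 was -0.0623 with replicate 3 of *tt19-8*, S2 and S8 left out together. The log2 ratio of CHIL to TT5 in *tt19-8* minus Col-0 ranged from -0.0540 to 0.0467 with 1 library left out and was 0.0270 with those 3 left out. The cause was not tested.

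Over all genes, fits of the 6 libraries compared moved counts both ways, to 894 calls from 4217 in S2 minus *tt19-8*, 885 from 2366 in S2 minus S8, 2963 from 5465 in S5 minus *tt19-8*, 5461 from 8248 in S7 minus *tt19-8* and 3321 from 6027 in S2 minus Col-0, but to 10799 from 8046 in S1 minus Col-0 and 11677 from 9478 in S4 minus Col-0. The cause was not tested. An adjusted p under 0.01 left 1184 of 3011 calls in *tt19-8* minus Col-0. TT6 had 2 to 19 counts, and how reads in its overlap with AT3G51238 were counted is not given in the sources used here.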
